A study of Equus caballus with 45 samples.

Results

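Wnt signalling is held in check by proteins that act at several points of the pathway, and 9 genes for such antagonists were followed through all 4 equine cell types of the series. The members were found by their symbols in both count tables, 9 of 20881 protein coding genes: NOTUM, DKK1, DKK2, DKK3, SFRP1, SFRP2, FRZB, WIF1 and AXIN2. They were grouped because NOTUM was higher in mesenchymal stromal cells (MSC) given a STING agonist and in synoviocytes given the medium of such MSC, so the set was selected on the NOTUM counts of these 2 comparisons, which are described below without a test.

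Wnt proteins are secreted carrying a lipid, bind Frizzled receptors together with LRP5 or LRP6, and stabilise beta-catenin, which then drives target genes. NOTUM is a secreted enzyme that removes the lipid from Wnt proteins. The SFRP proteins, FRZB and WIF1 bind Wnt proteins outside the cell, DKK1 and DKK2 bind the LRP co-receptors, and DKK3 is a secreted relative of these whose role in Wnt signalling is less settled. AXIN2 works inside the cell, as a scaffold of the complex that destroys beta-catenin, and is itself switched on by beta-catenin, so it is used as a readout of the pathway as well. In joints the pathway is known for its part in cartilage maintenance and in bone and synovial remodelling.

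MSC were grown from sternal bone marrow of 3 horses, labelled 92, 99 and PC, and were left untreated, exposed for 2 h to the TLR3 agonist poly I:C or to the STING agonist 2′3′-cGAMP, or carry the label CpG, with 1 library per horse and condition (12 libraries). The labels' protocol gives the agonists at 10 ng/mL and the series' design text at 10 μg/mL, and no dose is given for CpG. Cells were harvested 24 h after washing. Synoviocytes, chondrocytes and blood monocyte-derived macrophages of 1 healthy horse received IL-1β and TNF-α plus conditioned medium (CM) from MSC that had been left resting or activated through TLR3 or STING, of the horses labelled AG1, ORC and PC (9 libraries per cell type). A further library of each cell type had the cytokines only and another had no addition. By the paper, joint cells were washed after 24 h of treatment and cultured for 24 h more before lysis. The protocol gives each cytokine at 20 ng/mL for synoviocytes and 10 ng/mL for macrophages. All joint cells with medium thus share the cytokines. By the paper, the joint cells came from 1 horse. The 3 libraries of a group would then differ in the MSC donor of the medium and not in the joint cell donor. On that reading p-values in joint cells measure the spread between media on the cells of 1 horse. The sample titles also put ORC or PC on the libraries with cytokines only or no addition, which had no medium. What the label marks there is not stated. How the labels ORC and AG1 relate to 99 and 92 is not stated.

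Libraries held 23525704 to 54103873 counts (median 31660884), and a count of 3, taken as the floor, was worth 0.0554 to 0.128 CPM (counts per 1000000 counts of the library). Levels below are in CPM, and since they are not divided by transcript length they are compared between samples and not between genes. Some libraries stood apart from the others of their group in interferon response genes. MX1, an interferon-induced gene, stood at 1.44 to 6.79 CPM in untreated MSC and at 477 and 629 CPM with the TLR3 agonist in donors 99 and PC, but at 3.75 CPM in the library labelled TLR3 agonist of donor 92. With the STING agonist it was 546 to 927 CPM. Of the 8 interferon response genes followed, all but MX1 were lowest of that group in donor 92. CXCL10 was 2.14 CPM in donor 92 against 139 and 72.7 CPM in donors 99 and PC, and IFIT3 was 86.1 CPM against 572 and 688 CPM. All 8 were still above the untreated library of donor 92. The summed level of 8 interferon response genes was 131 CPM in synoviocytes with TLR-MSC-CM of ORC and 50.1 to 67.3 CPM in the other synoviocyte libraries. In chondrocytes with STING-MSC-CM of AG1 the same sum was 200.4 CPM, against 51.9 to 70.2 CPM in the other chondrocyte libraries. Where comparisons use the TLR3 agonist library of donor 92 or these ORC and AG1 libraries, values without them are given beside the main ones. Every fit that left out a library kept the other libraries of its donor, so its groups no longer held the same donors. In macrophages the interferon sum ran from 744 CPM with resting MSC-CM of AG1 to 2733 CPM with resting MSC-CM of ORC. MX1 was 139 and 542 CPM in these libraries. Both belong to the reference group of the comparisons with resting medium, and the main macrophage values below keep both. Macrophages carried all 8 of their marker genes (7991 to 10966 CPM summed). Chondrocytes showed 6.12 to 101 CPM of ACAN, the cartilage proteoglycan core protein, against at most 0.553 CPM in MSC and 3.47 CPM in synoviocytes. COL2A1 was at most 0.368 CPM and COL9A1 0.0376 CPM in chondrocytes, so collagens that define cartilage cells were close to absent. SOX9 had a median of 10.3 CPM in chondrocytes and 30.1 CPM in MSC, and MATN3 of 0.278 CPM against 2.02 CPM in synoviocytes. The 8 chondrocyte markers summed to a median of 26.2 CPM in chondrocytes and 32.5 CPM in MSC, so this sum did not set chondrocytes apart from MSC. Of the synoviocyte markers, PDPN was at 84.2 to 110 CPM in synoviocytes and at 60.9 to 110 CPM in chondrocytes, so it did not separate these cells. THY1 was higher in synoviocytes (278 to 690 CPM against 44.8 to 237 CPM). CDH11 was higher in chondrocytes (442 to 536 CPM against 246 to 293 CPM). HAS1 and CLIC5 were at most 1.54 and 0.159 CPM in these cells, and PRG4 was not among the counted genes. CD44, THY1, ENG and NT5E were all detected in MSC. Their summed level had a median of 1026 CPM in MSC and 1706 CPM in macrophages, so it did not set MSC apart. CD44 was higher in macrophages (1116.5 to 1493 CPM) than in MSC (169 to 556 CPM). THY1 and NT5E were low in macrophages, at most 5.17 and 0.329 CPM.

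Of the 9 members, 7 had at least 10 counts over the libraries of each cell type and were tested in each. DKK2 was detected almost solely in synoviocytes, where it ran from 0.370 to 0.811 CPM (12 to 25 counts). It had 0 counts in all 11 chondrocyte libraries, at most 1 count in macrophages, and in MSC 4 counts in the CpG library of donor 92 and 0 elsewhere. A count of 0 allows a level of up to the floor of 3 counts. WIF1 had 0 to 3 counts in every library and was tested in no comparison.

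NOTUM was measured at 7.66 to 21.0 CPM in untreated MSC, 10.9 to 23.9 CPM in synoviocytes, 12.9 to 36.2 CPM in chondrocytes and 0.0672 to 0.396 CPM in macrophages. In macrophages this amounted to 2 to 15 counts per library. The ranges in MSC, synoviocytes and chondrocytes overlapped.

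**Figure D1:**
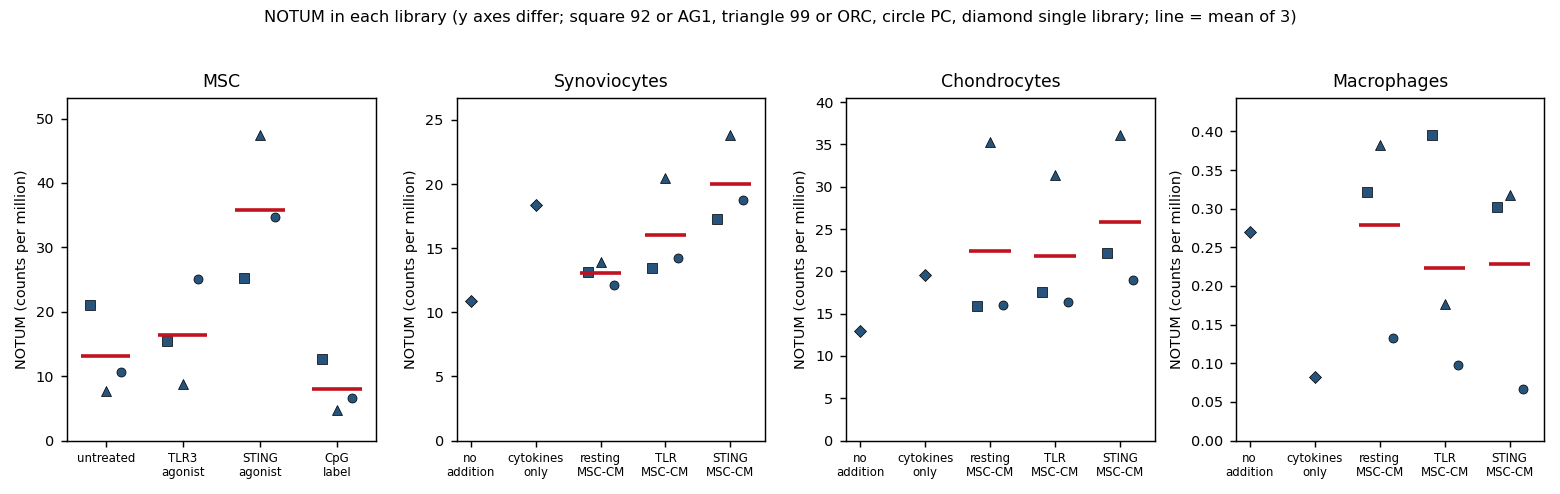
NOTUM in CPM (y axis, a different range in each panel) for every library, by condition (x axis), in MSC, synoviocytes, chondrocytes and macrophages; symbols mark the MSC donor, diamonds are conditions with 1 library and red lines are means of 3. The STING agonist group of MSC (25.2 to 47.5) lies above the untreated group, and the ORC medium gives the highest value in each chondrocyte group.

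The question put to the MSC was how TLR3 or STING activation changes their transcriptome. NOTUM in untreated MSC was 21.0 CPM in donor 92, 7.66 in donor 99 and 10.7 in donor PC. With the STING agonist it was 25.2, 47.5 and 34.8 CPM in the same order. Every STING library was above every untreated library, but the donors differed in the step between them, which was 1.20-fold in donor 92, 6.20-fold in donor 99 and 3.24-fold in donor PC. The group means were 35.8 ± 11.2 CPM and 13.1 ± 7.01 CPM (SD, n = 3), a fitted log2 fold change of 1.45. Without the untreated library of donor 92 this was 1.95.

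AXIN2 stood at 1.92, 1.80 and 2.58 CPM in untreated MSC of donors 92, 99 and PC and at 5.95, 3.23 and 8.36 CPM with the STING agonist. Its groups did not overlap either, and the ratios within donors were 3.09, 1.80 and 3.24. The fitted log2 fold change was 1.46, with means of 5.85 ± 2.57 and 2.10 ± 0.421 CPM.

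DKK1 was higher with the STING agonist within each donor too, from unequal levels. It was 8.48, 35.2 and 8.01 CPM in untreated cells of donors 92, 99 and PC, and 18.3, 153 and 18.9 CPM with the STING agonist. The mean of 63.3 ± 77.4 CPM was thus carried by donor 99. Without the STING library of donor 99 the log2 fold change fell from 1.88 to 0.05. That fit kept the untreated library of donor 99, the highest of its group. The 0.05 therefore does not describe donors 92 and PC, which rose from 8.48 to 18.3 CPM and from 8.01 to 18.9 CPM. SFRP1 was 22.5, 2.66 and 8.66 CPM untreated and 43.1, 9.28 and 20.5 CPM with the STING agonist, a log2 fold change of 1.08 in groups that overlapped. DKK3, SFRP2 and FRZB had log2 fold changes of −0.09, −0.05 and 0.64.

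In all, 4 of the 7 members were higher within all 3 donors (NOTUM, AXIN2, DKK1 and SFRP1), against 15.2% of the 14872 genes, and 2 had groups that did not overlap with STING higher, against 4.03%. This comparison helped choose the members, so nothing is read from these shares. Their median log2 fold change was 1.08, beside 0.01 for all genes. The macrophage marker list moved with the same libraries: 3 to 4 of its 8 genes were above the floor in every MSC library, and its summed level was 12.7 to 15.9 CPM untreated and 54.5 to 324 CPM with the STING agonist. Of its defining genes, CD163 was at 0 in all 12 MSC libraries and PTPRC reached at most 0.239 CPM, and nearly all of the sum was CD68, at up to 324 CPM. Its part in these values was not tested.

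**Figure D2:**
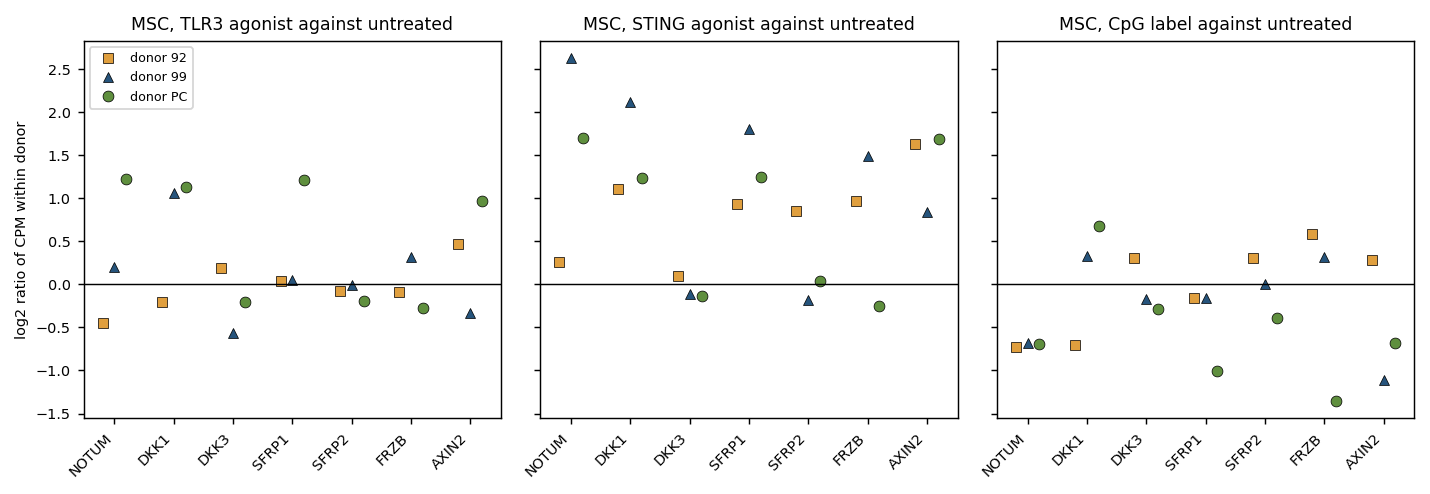
Log2 ratio of CPM in treated against untreated MSC of the same donor (y axis) for the 7 members detected in MSC (x axis), with the TLR3 agonist, the STING agonist and the CpG label; each symbol is 1 donor. With the STING agonist NOTUM, DKK1, SFRP1 and AXIN2 lie above 0 in all 3 donors, and with the CpG label NOTUM lies below 0 in all 3 (ratios of 0.604 to 0.625).

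With the TLR3 agonist NOTUM was 15.4 CPM in donor 92, 8.85 in donor 99 and 25.1 in donor PC, within or just above the untreated range. Its log2 fold change of 0.36 (SE 0.47) did not pass the quasi-likelihood test of edgeR, adjusted over all genes by Benjamini-Hochberg (adjusted p = 1.00, n = 3), and only 2 of 3 donors were higher. AXIN2 (0.58, SE 0.51) and DKK1 (1.03, SE 1.14) had the smallest p-values of the members and did not pass either (adjusted p = 1.00 by edgeR in both). Without the library of donor 92 that lacked MX1 induction, the log2 fold changes were 0.40 for NOTUM, 0.66 for AXIN2 and 1.49 for DKK1, and still none of the 7 members was called. Of all genes 0% were called in this comparison with that library and 51 genes without it. The untreated library of donor 92, with the highest NOTUM of its group (21.0 CPM), stayed in the reduced fit. The 0.40 therefore does not describe donors 99 and PC, where NOTUM went from 7.66 to 8.85 CPM and from 10.7 to 25.1 CPM.

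Under the CpG label NOTUM was lower in 3 of 3 donors, at 12.7, 4.79 and 6.65 CPM in donors 92, 99 and PC. The ratio to the untreated culture of the same donor was 0.604, 0.625 and 0.620, so the donors lay close together. With SFRP1, 2 of 7 members were lower in all 3 donors, beside 9.69% of genes. The groups still overlapped, because donor 92 began high, and the log2 fold change of −0.71 (SE 0.50) did not pass (adjusted p = 1.00 by edgeR). AXIN2 (−0.39, SE 0.53) and FRZB (−0.32, SE 0.62) had the next smallest p-values, and no member was called, with 0% of 15099 genes called. MX1 was 1.61 to 7.77 CPM in the CpG libraries, within or close to the untreated range.

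STING and TLR3 activation were compared directly for the members other than NOTUM, whose STING values chose the set. AXIN2 was higher with the STING agonist in 3 of 3 donors (log2 fold change 0.88, SE 0.51, adjusted p = 1.00 by edgeR), and so was FRZB (0.62, SE 0.68), without passing. Without the TLR3 library of donor 92 these were 0.77 for AXIN2 and 0.27 for FRZB. Of 14872 genes 0% were called here. NOTUM itself was at 25.2 to 47.5 CPM with STING against 8.85 to 25.1 CPM with TLR3, and its log2 difference of 1.08 (1.02 without the TLR3 library of donor 92) is given as a value only.

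Differences between donors exceeded those between treatments for several members. SFRP2 was 45.2 to 86.5 CPM in all 4 conditions of donor 92, 272 to 368 CPM in donor PC and 640.2 to 724 CPM in donor 99. DKK3 kept the donors apart as well, at 152 to 188 CPM in donor 92, 201 to 298 CPM in donor 99 and 380.3 to 465 CPM in donor PC. These 2 of the 7 members had donor ranges that did not overlap over the 4 conditions, beside 7.89% of 15099 genes.

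The spread in log2(CPM + 1) over the 12 MSC libraries was split between donors and conditions. Donors accounted for 97.6% of the spread of SFRP2, 92.5% of DKK3, 77.6% of DKK1 and 71.0% of SFRP1, beside a median of 58.9% over all genes. For NOTUM donors accounted for 8.05% and conditions for 68.4%, and for AXIN2 for 28.3% and 61.0%, where the median share of conditions over all genes was 10.7%. The condition shares include the STING libraries that chose the set, so nothing is read from them.

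**Figure D3:**
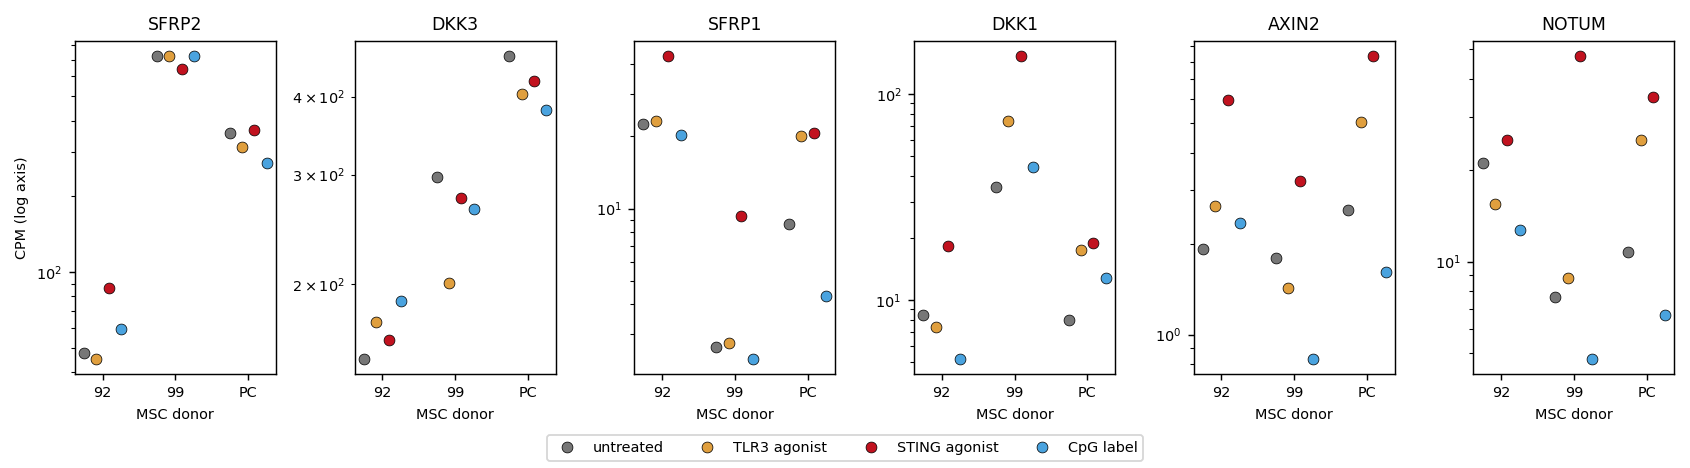
CPM (y axis, log scale) of 6 members in the MSC of donors 92, 99 and PC (x axis), 1 point per library, coloured by condition. SFRP2 and DKK3 form 3 separate groups by donor, while the STING agonist point of NOTUM and AXIN2 is the highest of its donor throughout.

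The question put to the joint cells was whether medium of activated MSC changes the transcriptome of cells exposed to inflammatory cytokines. In synoviocytes NOTUM was 13.2, 14.0 and 12.2 CPM with resting MSC-CM of AG1, ORC and PC. It was 17.3, 23.9 and 18.8 CPM with STING-MSC-CM of the same donors, and the groups did not overlap. The ratios within donors were 1.31, 1.71 and 1.55. The log2 fold change was 0.60, from 13.1 ± 0.903 to 20.0 ± 3.44 CPM (SD, n = 3).

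The single synoviocyte library with cytokines and no medium held 18.4 CPM of NOTUM, inside the STING-MSC-CM range and above all 3 resting MSC-CM libraries. The STING values were therefore higher than those with resting medium and were not separate from the value with no medium. The TLR-MSC-CM values were 13.4, 20.4 and 14.3 CPM, with ORC highest again. For the change with TLR-MSC-CM the log2 fold change was 0.28 (SE 0.15, adjusted p = 0.513 by edgeR), and it was 0.09 without the ORC library that had the raised interferon genes.

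Other members moved little with STING-MSC-CM in synoviocytes. AXIN2 went from 10.6, 12.1 and 9.95 CPM to 13.2, 12.8 and 12.01 CPM in AG1, ORC and PC, in groups that overlapped. DKK1 was 13.5, 13.4 and 14.6 CPM with resting medium and 15.2, 18.5 and 18.2 CPM with STING-MSC-CM, without overlap. SFRP1 was 649.6 to 754 CPM with resting medium and 762 to 811 CPM with STING-MSC-CM, a log2 fold change of 0.14. With TMM library sizes the SFRP1 groups overlapped and those of AXIN2 did not. Thus 3 of 8 members (NOTUM, DKK1 and SFRP1) had separate groups with STING higher, beside 8.62% of 14584 genes, and 4 of 8 were higher in all 3 donors, beside 16.5%. This comparison too chose the set, and nothing is read from these shares.

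With TLR-MSC-CM no member passed in synoviocytes, and 0% of 14584 genes did. The smallest p-values belonged to DKK1 and SFRP2. DKK1 was 14.0, 21.0 and 17.3 CPM against 13.5, 13.4 and 14.6 CPM with resting medium, which is 0.33 on the log2 scale (SE 0.13, adjusted p = 0.494 by edgeR), and 0.20 without the ORC library. SFRP2 was 58.6, 44.3 and 49.3 CPM against 64.0, 59.1 and 55.2 CPM, lower in 3 of 3 donors (−0.23, SE 0.10, adjusted p = 0.496 by edgeR). SFRP1 came next, at 0.16 (SE 0.08, adjusted p = 0.506 by edgeR). Without the ORC library the log2 fold changes of SFRP2 and SFRP1 were −0.13 and 0.10.

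Between STING-MSC-CM and TLR-MSC-CM the members other than NOTUM differed by log2 fold changes of −0.29 to 0.40 in synoviocytes, and none was called (0% of genes). AXIN2 was higher with STING-MSC-CM in 3 of 3 donors (0.18, SE 0.10, adjusted p = 1.00 by edgeR, and 0.22 without the TLR-MSC-CM library of ORC). FRZB was 7.19 CPM with TLR-MSC-CM of ORC and 3.85 to 3.97 CPM in the other 2 libraries of that group, and its log2 difference of −0.29 became 0.04 without that library.

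In chondrocytes NOTUM differed between the donors of the medium. With ORC medium it was 35.3, 31.3 and 36.2 CPM in the resting, TLR and STING groups, against 15.9, 17.6 and 22.1 CPM with AG1 and 16.0, 16.4 and 19.0 CPM with PC. The ORC libraries were the highest in each group, and media donors accounted for 91.1% of the spread and conditions for 6.32%. STING-MSC-CM gave a higher value than resting medium in 3 of 3 donors. This step was small beside the spread between media donors (log2 fold change 0.18, SE 0.41, adjusted p = 1.00 by edgeR). The fit had no donor term, so its SE holds that donor spread and does not measure the spread of the steps within donors. With the MSC donor as a replicate block no member was called either. Without the AG1 library with raised interferon genes the log2 fold change was 0.31. That fit kept the resting library of AG1 (15.9 CPM), so 0.31 does not measure the step within donors. NOTUM went from 35.3 to 36.2 CPM with ORC and from 16.0 to 19.0 CPM with PC.

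Other members differed between medium donors in chondrocytes too, in different directions. SFRP2 was 1057 to 1483 CPM with ORC media and 427 to 718 CPM with the others, and FRZB was 22.5 to 35.6 CPM against 11.6 to 17.4 CPM. SFRP1 was 249 to 268 CPM with ORC and 140.2 to 197 CPM with the others. DKK1 went the other way, with 25.9 to 32.6 CPM in ORC, 44.3 to 50.4 CPM in PC and 55.5 to 76.9 CPM in AG1. DKK1 alone of the 7 members had 3 donor ranges that did not overlap over the 3 conditions, beside 7.73% of 14304 genes. Donor shares were above the median of all genes (58.8%) for every member but AXIN2, which was 26.9 to 38.9 CPM across the 9 libraries with a donor share of 16.0%. Marker lists stood apart in the ORC libraries as well. The 4 mural and smooth muscle markers summed to 3335 to 3537 CPM with ORC against 1357 to 1855 CPM with the others, and the 8 chondrocyte markers to 55.3 to 89.7 CPM against 15.0 to 27.1 CPM. Their part in the members' values was not tested. Whether these 3 wells per donor shared anything besides the donor's medium is not given in the labels.

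No member was called in chondrocytes with TLR-MSC-CM, with STING-MSC-CM or between them, and 0% of 14304 genes were called in each. With TLR-MSC-CM FRZB (0.34, SE 0.41), AXIN2 (−0.08, SE 0.14) and DKK3 (0.04, SE 0.10) had the smallest p-values, all with an adjusted p = 1.00 by edgeR, and NOTUM had a log2 fold change of −0.02 (SE 0.41). With STING-MSC-CM AXIN2 (0.10, SE 0.14) and DKK1 (0.16, SE 0.37) stood beside NOTUM. Without the AG1 library with raised interferon genes they were 0.19 and −0.22. The resting library of AG1, with the highest DKK1 of its group, stayed in that fit. Between the media AXIN2 was 32.9, 38.9 and 36.9 CPM with STING-MSC-CM and 32.1, 29.6 and 32.1 CPM with TLR-MSC-CM, groups that did not overlap, as for 2.49% of genes, yet it did not pass (0.18, SE 0.14, adjusted p = 1.00 by edgeR) and with TMM library sizes the groups overlapped. FRZB had a log2 difference of −0.43 (SE 0.41) there and DKK3 of −0.06 (SE 0.10). Without the AG1 library with raised interferon genes the differences were 0.27 for AXIN2, −0.19 for FRZB and −0.039 for DKK3.

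Macrophages had little of any member. Over the 11 libraries DKK1 was at 1.45 to 6.07 CPM, SFRP1 at 1.31 to 5.88 CPM and DKK3 at 0.530 to 2.82 CPM. AXIN2 had 0 to 3 counts in each library, which is at or under the floor, and SFRP2 had 0 to 5 counts except for 10 counts with resting MSC-CM of ORC. NOTUM was 13, 9 and 5 counts with resting medium of AG1, ORC and PC and 8, 9 and 2 counts with STING-MSC-CM, lower in CPM in 3 of 3 donors (−0.28, SE 0.73, adjusted p = 0.962 by edgeR).

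No member was called in macrophages with either medium or between them, and 0% of 15052 genes were. SFRP1 had the smallest p-value with STING-MSC-CM, at 5.88, 2.33 and 3.16 CPM against 3.37, 1.91 and 1.89 CPM with resting medium, higher in 3 of 3 donors (0.63, SE 0.34, adjusted p = 0.907 by edgeR). FRZB was also higher in 3 of 3 donors (0.68, SE 0.40, adjusted p = 0.907 by edgeR). With TLR-MSC-CM the smallest p-value was that of SFRP2, which had 0 counts in all 3 libraries against 1, 10 and 0 counts with resting medium of AG1, ORC and PC, so that the difference rested on 1 library (adjusted p = 0.998 by edgeR). NOTUM had a log2 fold change of −0.34 (SE 0.71) with TLR-MSC-CM and of 0.06 (SE 0.73) between the media, where SFRP1 had 0.58 (SE 0.33, adjusted p = 0.742 by edgeR). Whether a change with medium differed between cell types was tested for 4 pairs of changes that the rule had not used. For the STING-MSC-CM change SFRP1 differed between macrophages and chondrocytes by a log2 value of 0.69 (SE 0.39, adjusted p = 1.00 by edgeR), which was 0.51 without the chondrocyte library of AG1 with raised interferon genes and 0.25 without the macrophage STING-MSC-CM library of AG1, and no member was called in any of the 4, with 0% of 16584 genes called in each.

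Over the 11 comparisons within a cell type that did not choose the set, no member passed the adjusted threshold by edgeR or by DESeq2. At an unadjusted p under 0.05 by edgeR there were 2 such values, DKK1 and SFRP2 in synoviocytes with TLR-MSC-CM. There 10.0% of all genes were below 0.05 as well, and the share over the other comparisons began at 0.242%. Thresholds of 0.05 on the unadjusted p and 2 on the size of the log2 fold change also selected 0 members in them.

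Large differences lay between the joint cell types. In bulk RNA such a difference cannot tell fewer cells of a type from less RNA per cell. They were compared in the 3 libraries of each with resting MSC-CM, with the limit that each cell type is 1 culture source. Between chondrocytes and synoviocytes 7 of 8 members tested were called by edgeR, beside 18.1% of 15599 genes. 4 were higher in chondrocytes (8.31% of genes) and 3 lower (9.84%).

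SFRP2 showed the widest step among those higher in chondrocytes. It was 578, 1219.9 and 489 CPM with media of AG1, ORC and PC, against 64.0, 59.1 and 55.2 CPM in synoviocytes (log2 fold change 3.67, SE 0.43, adjusted p = 0.000248 by edgeR). FRZB, first isolated from cartilage, was 17.3, 25.2 and 11.8 CPM against 4.26, 2.97 and 3.72 CPM (2.29, SE 0.29, adjusted p = 0.000437 by edgeR). DKK1 was 55.5, 28.9 and 50.4 CPM in chondrocytes against 13.5, 13.4 and 14.6 CPM (1.68, SE 0.35, adjusted p = 0.00810 by edgeR). AXIN2 was 34.2, 38.7 and 26.9 CPM against 10.6, 12.1 and 9.95 CPM (1.60, SE 0.20, adjusted p = 0.000426 by edgeR). None of these groups overlapped.

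SFRP1 and DKK3 were lower in chondrocytes. SFRP1 was 184, 268 and 169 CPM against 754, 649.6 and 701 CPM in synoviocytes (−1.77, SE 0.22, adjusted p = 0.000400 by edgeR). DKK3 was 380.1, 297 and 337 CPM against 705, 530.3 and 613 CPM (−0.88, SE 0.14, adjusted p = 0.00142 by edgeR). DKK2 had 0 counts in chondrocytes and 18, 13 and 19 counts in synoviocytes, at least 5.72-fold lower with 3 counts per library as the floor (adjusted p = 0.00586 by edgeR). The 2 cell types thus held antagonists of the same families in opposite order, with SFRP2 and FRZB higher in chondrocytes and SFRP1 higher in synoviocytes.

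NOTUM did not pass between these cells. It was 15.9, 35.3 and 16.0 CPM in chondrocytes and 13.2, 14.0 and 12.2 CPM in synoviocytes, groups without overlap as for 18.1% of genes in that direction (log2 fold change 0.76, SE 0.30, adjusted p = 0.112 by edgeR). The size rested on 1 library, with medium of ORC: without that chondrocyte library the log2 fold change was 0.26.

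**Figure D4:**
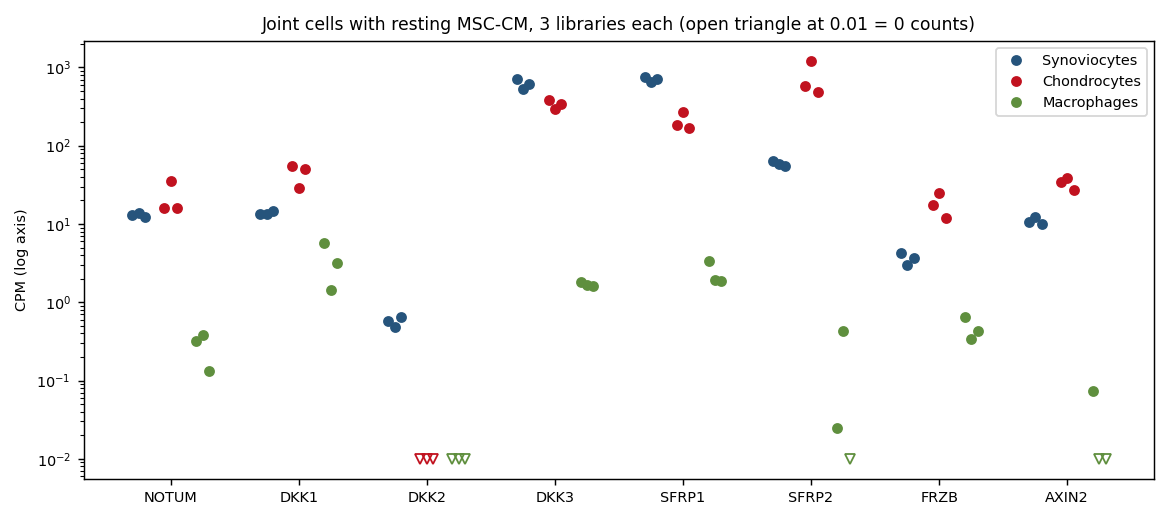
CPM (y axis, log scale) of 8 members (x axis) in synoviocytes, chondrocytes and macrophages with resting MSC-CM, 3 libraries each; open triangles drawn at 0.01 are libraries with 0 counts. Chondrocytes lie above synoviocytes for SFRP2, FRZB, DKK1 and AXIN2 and below them for SFRP1, DKK3 and DKK2, and macrophages lie lowest for all members but DKK2, which is at 0 in chondrocytes as well.

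Macrophages were lower than synoviocytes for 8 of 8 members tested, beside 35.1% of genes called lower and 71.6% called in either direction. They were lower than chondrocytes for 7 of 8, beside 34.9% lower and 71.5% in either direction. NOTUM was 0.322, 0.383 and 0.133 CPM in macrophages, a log2 fold change of −5.62 (SE 0.44) from synoviocytes and −6.38 (SE 0.44) from chondrocytes (adjusted p = 8.24e-07 and 3.05e-07 by edgeR). AXIN2, with at most 3 counts per macrophage library, was at least 116-fold lower than in synoviocytes and at least 355-fold lower than in chondrocytes. DKK1 differed least, by −1.98 (SE 0.38, adjusted p = 0.000750 by edgeR) from synoviocytes. DKK2 was at 0 in both macrophages and chondrocytes and could not be compared.

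The cytokines themselves could be looked at in only 1 library with no addition per cell type, which lacked both the cytokines and the medium. In synoviocytes AXIN2 was 3.79 CPM with no addition, 12.8 CPM with cytokines only and 9.95 to 13.2 CPM in the 9 libraries with medium. NOTUM was 10.9 CPM with no addition, below the 12.2 to 23.9 CPM of the 10 libraries with cytokines. DKK1 (9.76 CPM), DKK3 (494 CPM) and SFRP1 (500.5 CPM) were also below all 10. SFRP2 went the other way, at 114 CPM with no addition and 44.3 to 64.0 CPM in the rest.

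In chondrocytes SFRP2 was 2366 CPM with no addition, 424 CPM with cytokines only and 427 to 1483 CPM with medium. FRZB was 71.8 CPM with no addition against 11.6 to 35.6 CPM in the 10 others. AXIN2 (19.4 CPM) and NOTUM (12.9 CPM) were below all 10, whose lowest values were 26.9 and 15.9 CPM. In both cell types, therefore, NOTUM and AXIN2 were lowest and SFRP2 was highest in the library with no addition.

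These libraries have no replicate, and many genes stood apart in them. In synoviocytes 6 of 8 members were outside the range of the 10 cytokine libraries, beside 41.2% of 14759 genes, and in chondrocytes 4 of 7, beside 40.6% of 14490. In macrophages it was 1 of 7, SFRP1 at 1.31 CPM against 1.89 to 5.88 CPM, beside 26.5%. With cytokines only, the members lay inside the range of the 9 medium libraries in each cell type, except SFRP2 in chondrocytes, which was just below it. Marker genes stood apart in the same libraries. The summed level of 8 chondrocyte markers was 150.4 CPM in chondrocytes with no addition, with ACAN at its highest value of 101 CPM, against 15.0 to 89.7 CPM in the 10 others. In synoviocytes with no addition the 5 synovial fibroblast markers summed to 1038 CPM against 651 to 724 CPM, the 4 MSC markers to 1675 CPM against 1094 to 1234 CPM and the chondrocyte markers to 20.8 CPM against 7.08 to 10.5 CPM. THY1 is in both the synovial fibroblast and the MSC list. It had its highest synoviocyte value in this library (690 CPM, beside a median of 324 CPM), so these sums share that gene. The part of these markers in the members' values was not tested.

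**Figure D5:**
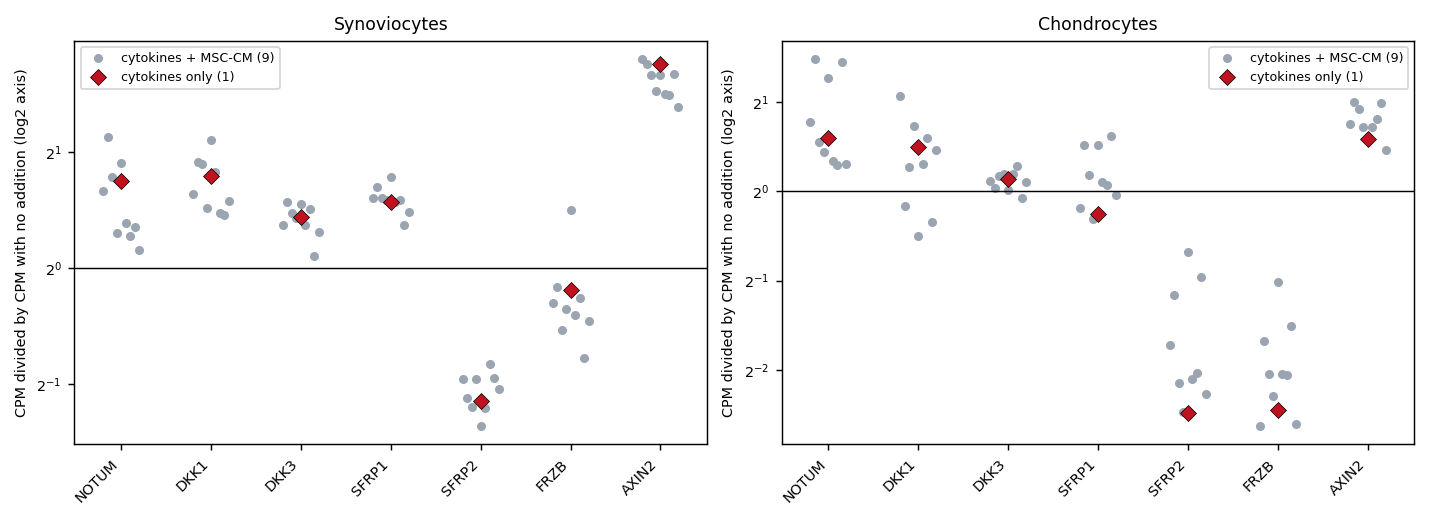
CPM divided by that of the library with no addition (y axis, log2 scale) for 7 members (x axis) in synoviocytes and chondrocytes; grey points are the 9 libraries with cytokines and MSC-CM and the red diamond the library with cytokines only. SFRP2 lies below 1 and AXIN2 and NOTUM above 1 in all 10 libraries of both cell types.

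Further Wnt pathway genes were taken from 7 lists, and those named here were chosen after their values were seen. Within a cell type none of their genes was called by edgeR in the 11 comparisons that did not choose the set. For the MSC with the STING agonist, the other Wnt antagonists had 3 of 11 tested members higher in all 3 donors, beside 15.2% of genes, and a median log2 fold change of 0.64, while the targets of beta-catenin had 3 of 14 and a median of 0.12, beside 0.01 for all genes. AXIN2, itself such a target, had a log2 fold change of 1.46 in that comparison. In synoviocytes with STING-MSC-CM the targets had a median of −0.14 (11 tested) and the other antagonists 0.09 (10 tested), beside 0.00 for all genes.

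Between chondrocytes and synoviocytes with resting medium, where 8.31% of all genes were called higher and 9.84% lower, 4 of 14 Wnt ligands tested were higher in chondrocytes and 2 lower. WNT5A, a ligand known mainly for signalling without beta-catenin, was higher by a log2 value of 1.98 (SE 0.18, adjusted p = 5.27e-05 by edgeR) and WNT5B by 2.96 (SE 0.30). Of 14 receptors 6 were higher and 4 lower. ROR2, a receptor of WNT5A, was higher (2.04, SE 0.19) and its relative ROR1 lower (−2.35, SE 0.25), both past the threshold.

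Of 12 other antagonists 3 were lower in chondrocytes, beside 9.84% of genes, and 0 were higher. SFRP4, a further secreted Frizzled-related protein, was 61.5 ± 1.52 CPM in synoviocytes and 0.197 ± 0.137 CPM in chondrocytes (n = 3), lower by −8.17 on the log2 scale (SE 0.27, adjusted p = 8.94e-07 by edgeR). APCDD1, a membrane inhibitor of Wnt receptors, was lower by −4.95 (SE 0.64, adjusted p = 0.00117 by edgeR). RSPO3, a secreted Wnt enhancer, was also lower (−4.25, SE 0.30). Of the 13 targets of beta-catenin 3 were higher, beside 8.31% of genes, and 2 lower, beside 9.84%. TCF7 was higher (2.44, SE 0.32) and so was CCND1 (1.72, SE 0.29), while BMP4 was lower (−1.17, SE 0.33), so AXIN2 was 1 among targets that differed in both directions.

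In the library with no addition genes of these lists stood apart in both directions. Of the ligands 4 of 11 were below all 10 cytokine libraries in synoviocytes and 2 above, and 6 of 13 were below in chondrocytes and 0 above. Of the receptors 4 of 14 were below and 4 above in synoviocytes, and 3 and 4 of 14 in chondrocytes. Over all genes 20.6% were below and 20.6% above in synoviocytes, and 14.9% and 25.7% in chondrocytes. WNT5A was 13.3 CPM in chondrocytes with no addition and 120.4 CPM with cytokines only, and 6.51 and 27.5 CPM in synoviocytes. WLS, which carries Wnt proteins to the cell surface, was 196 and 362 CPM in chondrocytes and 284 and 420.2 CPM in synoviocytes. TCF7 was 4.75 and 19.6 CPM in chondrocytes and 0.253 and 2.69 CPM in synoviocytes. All 3 were below every library with cytokines in both cell types. Others were above in both, among them the receptors FZD5, FZD7 and ROR2, the transducers AXIN1, DVL2, TCF7L1 and TCF7L2, the antagonist SFRP4 and the target MYC.

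Genes whose pattern was most like that of NOTUM were found by Pearson's r of log2(CPM + 1), centred on each donor's mean, among genes with a mean of at least 1 CPM. Over 9 MSC libraries (untreated, TLR3 and STING agonist; 11822 genes) they were TRIM37 (r = 0.985), NDNF (0.984), ENSECAG00000036779 (0.984), GAS1 (0.983) and COG2 (0.980). Over the 9 synoviocyte libraries with medium (11702 genes) they were TMEM60 (0.994), GLIPR1 (0.980), ZNF800 (0.979), PLEKHA4 (0.977) and IRAG1 (0.973), none of them shared with MSC. The 9 points share donors and conditions, and without the centring the 5 genes were others in both cell types. Pearson's r does not measure the size of a change. With resting MSC-CM of AG1, ORC and PC, TMEM60 was 13.4, 12.6 and 13.3 CPM, and with STING-MSC-CM 15.3, 16.4 and 16.4 CPM. IRAG1 was 31.1, 28.9 and 29.2 CPM and then 32.2, 31.9 and 32.7 CPM.

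Among the members, SFRP1 was the closest to NOTUM in MSC (r = 0.935, rank 120 of 11822), then DKK1 (0.877) and AXIN2 (0.728), while SFRP2 had −0.01 and DKK3 0.04. In synoviocytes DKK1 came first (r = 0.836, rank 377 of 11702), then SFRP1 (0.773), AXIN2 (0.750) and DKK3 (0.727), and SFRP2 was opposite (−0.61). These r values describe 9 libraries that include those the rule used.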

How the data were processed

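RNA was sequenced from 45 cultures. The authors used Cutadapt 1.12 for trimming, STAR for alignment (genome build EquCab3.0) and HTSeq 0.11.0 for counting, and kept protein coding genes. The deposited values are raw counts in 2 tables. The 41 largest counts are stored rounded to 3 digits, 3.42% of all counts, and no member exceeds 61319. Samples were grouped by their labels. CPM used library totals. Each cell type was fitted alone in edgeR 4.0.16 (R 4.3.3; TMM, quasi-likelihood test) without a donor term, on genes with at least 10 counts, 3 replicated conditions per fit (all 12 libraries for CpG); resting media and interactions were fitted across joint cells. SE is the absolute log2 fold change over the square root of F. Adjusted p-values are Benjamini-Hochberg over all genes, threshold 0.05. Alternatives included DESeq2 1.42.0 and the study's thresholds. Scripts were tested on simulated data.

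Members, lists and tests were chosen with earlier results of these data known. All members were named, with full statistics for NOTUM and members called or, where none was, up to 3 with the smallest p. Floors cover counting error only, as molecular identifiers are not given in the sources used here. No replicates agreed within sampling noise. MSC donors pair libraries by origin: the median correlation of deviations from condition means, across genes, within donors was 0.821 for MSC, 0.0666 for synoviocytes, 0.676 for chondrocytes and 0.440 for macrophages. Sequences and coordinates were not used here.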

Additional observations from a re-analysis of the deposited data

Results flagged for a closer look

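NOTUM was marked because its change from resting MSC-CM to STING-MSC-CM ran in opposite directions in different cell types, in all 3 medium donors of each. It was higher in 3 of 3 donors in synoviocytes (log2 fold change 0.60) and in chondrocytes (0.18), beside 16.5% and 15.4% of genes. It was lower in 3 of 3 donors in macrophages (−0.28), beside 16.2% of genes. The macrophage values are 2 to 13 counts per library, and with ORC medium both the resting and the STING library held 9 counts. The difference between macrophages and chondrocytes was −0.45 (SE 0.84, adjusted p = 1.00 by edgeR), and that between macrophages and synoviocytes was not tested, since the synoviocyte change chose the gene. Groups of 3 libraries were too small for a check of single outlying libraries.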

How the results depend on the processing

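Over 80 log2 fold changes of members and 945 alternatives (median-ratio size factors, no low-count filter, filterByExpr, DESeq2, the MSC donor as a replicate block, and leaving out each library), 913 kept direction and side of the threshold, 29 changed sign and 3 moved by more than the replicate spread. The number of members called changed once: by the study's thresholds 3 rather than 7 were selected between chondrocytes and synoviocytes. With the MSC donor as a replicate block no member call changed, and NOTUM in chondrocytes with TLR-MSC-CM went from −0.02 to 0.0080. The other sign changes came from leaving out 1 library, and their cause was not tested. Each such fit kept the other libraries of the donor, so its groups no longer held the same donors. With the TLR3 agonist DKK1 ran from −0.49 to 2.12 and NOTUM from −0.068 to 0.86, and with the CpG label FRZB ran from −0.67 to 0.30. In synoviocytes FRZB between STING-MSC-CM and TLR-MSC-CM ran from −0.46 to 0.038. In chondrocytes with TLR-MSC-CM AXIN2 ran from −0.22 to 0.053, DKK3 from −0.038 to 0.12, FRZB from −0.18 to 0.66 and NOTUM from −0.40 to 0.48, and with STING-MSC-CM AXIN2 ran from −0.034 to 0.24, DKK1 from −0.22 to 0.38 and NOTUM from −0.17 to 0.69. Between these media FRZB ran from −0.70 to 0.090 and NOTUM from −0.14 to 0.59. In macrophages NOTUM ran from −0.62 to 0.17 with STING-MSC-CM and from −0.28 to 0.70 between the media. Of the differences between cell types, NOTUM (TLR-MSC-CM, chondrocytes minus synoviocytes) ran from −0.70 to 0.18, SFRP1 (TLR-MSC-CM, macrophages minus chondrocytes) from −0.11 to 0.47 and DKK3 (STING-MSC-CM, macrophages minus chondrocytes) from −0.99 to 0.011.

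Over all genes, edgeR called 0 in each of the 13 treatment comparisons. DESeq2 called 52 with the TLR3 agonist, 95 with the STING agonist, 33 in macrophages between the media and at most 5 in the others. The block called 80 in macrophages with STING-MSC-CM, 336 between the media and at most 2 in the others. Of the 4 tests between cell types, with 0 calls by edgeR, that of STING-MSC-CM gave 4 by DESeq2 and 17 with the block. Between chondrocytes and synoviocytes 2831 genes were called, 1199 by the study's thresholds, and 1781 to 3759 without 1 library. The study's thresholds, which do not adjust p, selected 27 to 154 genes per treatment comparison. Low counts limit every statement on NOTUM in macrophages and on DKK2 and WIF1.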
